A study of Mus musculus with 50 samples.

Results

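The cells described here carried a concentrated signal of 4 inflammatory transcripts in sections of mouse liver, and most of them lay side by side in spatial islands. A cell was a member when its counts of Saa1/2, Cxcl9, Cxcl10 and Lcn2 summed to at least 4 and to at least 4% of its gene counts. By this rule 169 of the 49917 segmented cells with at least 20 gene counts were members. The rule used the measured counts of these 4 genes, so their levels in members are given as a description, without a test.

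The sections came from C57BL/6 mice in which the histone chaperone HIRA was deleted from hepatocytes and from controls. HIRA KO mice carried HIRA fl/fl alleles and received AAV8-TBG-Cre when 6 months old, and control mice were wild type and received the same virus at the same age, so that both groups carried Cre driven by the hepatocyte promoter TBG. Livers were taken at 18 months, 12 months after injection, and 5 µm paraffin sections of the median lobe were imaged with the CosMx Spatial Molecular Imager, which counts single transcripts of a 1000-gene panel in place. The 50 fields of view (25 per genotype) lay in 6 areas, 3 per genotype. Each tissue area counts as 1 replicate: the design gives 3 mice per genotype, but no label ties an area to a mouse, so p-values measure only the spread between areas. The areas of each genotype filled one column of the slide, so slide position and genotype cannot be told apart. Hira was not on the panel, so the deletion could not be checked in these counts. An area held between 6829 and 10180 cells and between 741485 and 1569254 gene counts, with a median of 88 to 149 gene counts per cell, and distances are given in pixels because no source used here states the pixel size.

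The 4 genes mark different arms of inflammation. Saa1 and Saa2 encode serum amyloid A, secreted by hepatocytes in the acute-phase response downstream of interleukin 6 and interleukin 1, and Lcn2 encodes lipocalin 2, an iron-binding antibacterial protein made by stressed epithelium and by neutrophils. Cxcl9 and Cxcl10 encode chemokines induced by interferons, above all interferon gamma, and they attract T and NK cells that carry the receptor CXCR3. The panel reads Saa1 and Saa2 through one target, Saa1/2, so the 2 genes cannot be told apart.

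The promoters of the 4 genes are shown with the letters that matched the motifs searched below. Each line gives the 250 bases before the annotated start site from RefSeq on build GRCm38.p6, read 5′ to 3′ on the gene's strand, with matches in capitals.
Saa1, chr7:46742981-46743230, minus strand: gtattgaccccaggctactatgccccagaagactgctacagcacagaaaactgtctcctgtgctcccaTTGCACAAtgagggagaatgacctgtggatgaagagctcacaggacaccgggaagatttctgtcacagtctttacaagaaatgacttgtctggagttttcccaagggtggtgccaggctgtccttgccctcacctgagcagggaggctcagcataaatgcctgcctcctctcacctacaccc
Lcn2, chr2:32387740-32387989, minus strand: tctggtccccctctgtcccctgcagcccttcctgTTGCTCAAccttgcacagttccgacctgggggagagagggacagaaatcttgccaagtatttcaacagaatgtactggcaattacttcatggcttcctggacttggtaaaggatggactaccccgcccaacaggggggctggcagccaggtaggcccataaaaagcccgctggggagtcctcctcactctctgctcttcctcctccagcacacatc
Cxcl9, chr5:92328080-92328329, minus strand: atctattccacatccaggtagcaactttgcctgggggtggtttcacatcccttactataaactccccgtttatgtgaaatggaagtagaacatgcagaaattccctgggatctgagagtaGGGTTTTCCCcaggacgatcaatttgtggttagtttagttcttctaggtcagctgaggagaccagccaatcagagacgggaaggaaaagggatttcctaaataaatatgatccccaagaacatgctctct
Cxcl10, chr5:92348890-92349139, minus strand: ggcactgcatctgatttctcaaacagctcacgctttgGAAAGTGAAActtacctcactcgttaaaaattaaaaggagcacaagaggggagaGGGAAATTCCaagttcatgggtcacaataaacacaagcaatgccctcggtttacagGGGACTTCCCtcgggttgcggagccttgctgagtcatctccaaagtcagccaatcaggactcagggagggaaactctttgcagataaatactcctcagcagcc
Motifs were searched on both strands of the 250 bases before and 50 after the start. The interferon-stimulated response element, searched as a pair of GAAA copies separated by any 2 bases, matched the Cxcl10 promoter at position -213 and was found in 3.43% of 32807 promoters of the same length. The NF-kB motif, searched as GGGA, any 4 bases and CC, was present in 20.7% of promoters and matched Cxcl10 at positions -159 and -103 and Cxcl9, on the strand opposite to the gene's, at -130. The C/EBP motif TTGCNNAA, present in 10.8%, matched Saa1 at -182 and Lcn2 at -216, while the GAS motif TTCNNNGAA, present in 8.29%, matched none of the 4 windows. The promoter of Saa2 matched the C/EBP motif at -183, and 287 of 301 aligned positions of the Saa1 and Saa2 windows were identical (95.3%). These matches describe the letters in the window and are no evidence of binding.

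Members were unevenly spread over the tissue. In Control, area 1 held 1 member of 8181 cells (0.0122%), area 2 held 5 of 6829 (0.0732%) and area 3 held 7 of 7058 (0.0992%). In HIRA KO, area 1 held 123 members of 10180 cells (1.21%), area 2 held 4 of 10150 (0.0394%) and area 3 held 29 of 7519 (0.386%). HIRA KO areas 1 and 3 were above every Control area, while HIRA KO area 2 lay between the Control areas. The mean share was 0.544 ± 0.600% in HIRA KO and 0.0615 ± 0.0446% in Control (SD, n = 3 areas each), a difference of 0.483 percentage points with p = 0.3 (exact permutation test, two-sided; the smallest p this design allows is 0.1). Without the 2 fields of view that held the islands the difference was 0.00113 percentage points. These fields were chosen after seeing that they held the most members, so this value describes where the difference lay and is no test.

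Within the areas, 32 of the 50 fields of view held no member and 16 held 1 to 4. Field 13 of HIRA KO area 1 held 118 members among 1543 cells (7.65%, exact 95% binomial interval 6.37 to 9.09%). Field 47 of HIRA KO area 3 held 23 among 904 (2.54%, 1.62 to 3.79%). Together these 2 fields held 141 of the 169 members (83.4%), and the remaining 28 were divided into 13 in Control and 15 in HIRA KO. These intervals, and those below, cover counting error only.

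**Figure D1:**
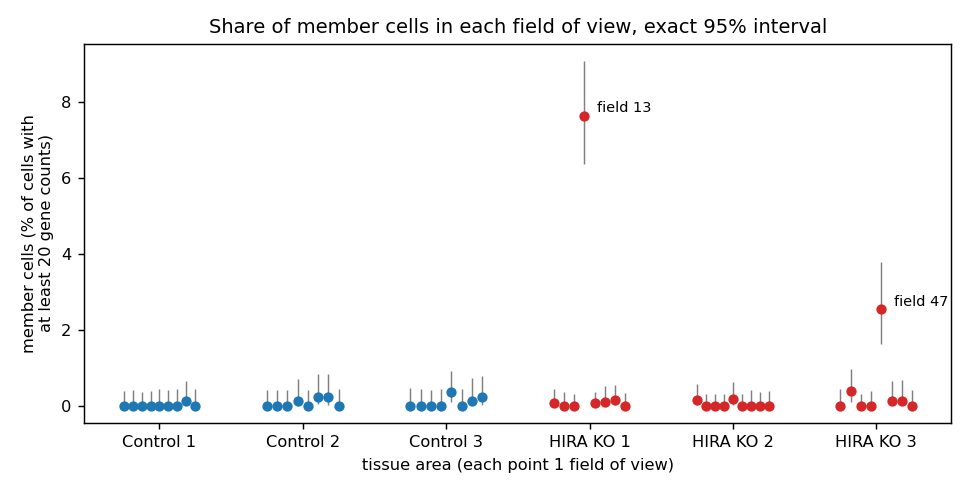
Percent of cells with at least 20 gene counts that met the rule, for each of the 50 fields of view grouped by tissue area (blue, Control; red, HIRA KO); bars are exact 95% binomial intervals. Fields 13 (7.65%) and 47 (2.54%) stand above all other fields, which held at most 4 members each.

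The threshold cut through a continuous range of cells. 40 members had exactly 4 counts of the 4 genes, while 67 cells just outside had 3 counts at 4% or more of their gene counts. A further 532 cells had 4 or more counts but less than 4%, at a median of 1.5%, and 65 of them lay between 3% and 4%, against 51 members between 4% and 5%. Of the cells just outside, 30 with 3 counts and 68 with a low percentage lay in field 13.

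Members whose centres lay within 300 pixels of each other were joined, and a group of at least 10 was called an island. This gave 2 islands with 135 members (79.9%), 1 in field 13 and 1 in field 47, and left 34 members outside. The island of HIRA KO area 1 held 112 members over 2259 by 2266 pixels, with a median of 84.6 pixels to the nearest member. The island of HIRA KO area 3 held 23 members over 1192 by 850 pixels, with a median nearest distance of 135 pixels. Members were interspersed with other cells in both: within 300 pixels of a member, 18.95% of cells in the first island and 21.7% in the second were members. Among the 20 nearest cells of a member, on average 20.2% were members in HIRA KO area 1 and 21.9% in HIRA KO area 3, against 0 to 2.5% in the other 4 areas.

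**Figure D2:**
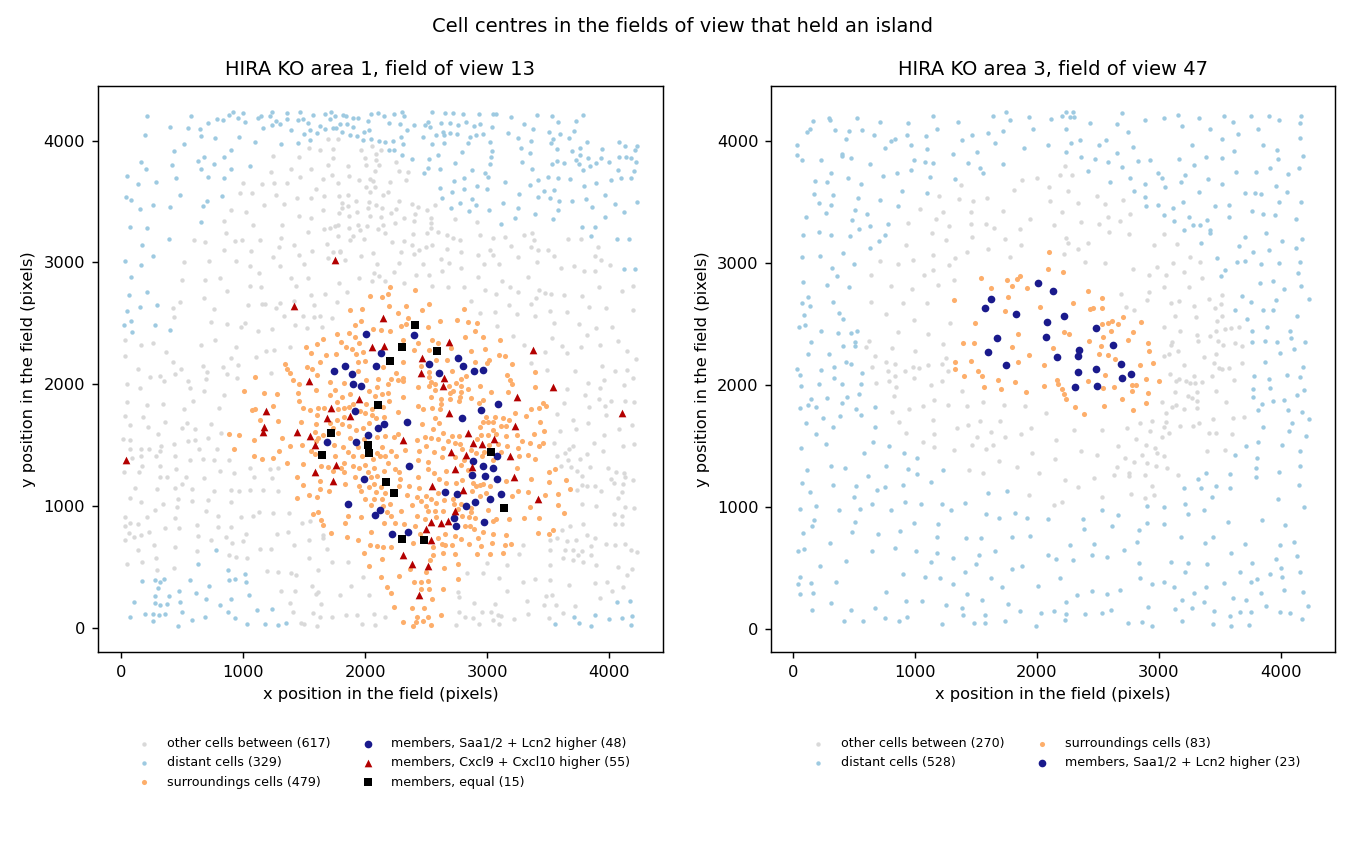
Positions of cell centres (x and y in pixels within the field) in field 13 of HIRA KO area 1 (left) and field 47 of HIRA KO area 3 (right). Dark symbols are members by the genes that lead their counts, orange points are other cells within 300 pixels of an island member, and light blue points are cells over 1000 pixels from any member; the left island mixes cells led by Saa1/2 and Lcn2 with cells led by the chemokines, and all 23 members of the right island are led by Saa1/2 and Lcn2.

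The 2 islands carried different mixtures of the 4 genes. In the island of HIRA KO area 1, the members held 877 counts of the 4 genes among 13139 (6.67%), of which Saa1/2 gave 386 (44.01%), Cxcl9 269 (30.7%), Cxcl10 171 (19.5%) and Lcn2 51 (5.82%). Saa1/2 was detected in 92 of these 112 cells, Cxcl9 in 91, Cxcl10 in 73 and Lcn2 in 37. In the island of HIRA KO area 3, the members held 385 counts among 6629 (5.81%), of which Saa1/2 gave 329 (85.5%), Lcn2 27, Cxcl9 26 and Cxcl10 3. Saa1/2 was detected in all 23 of these cells and Cxcl10 in 3. By the 4 genes that chose the cells, and by these alone, the label of acute-phase and interferon-response cells described the first island. The second was led by the acute-phase target with few chemokine counts. Targets may be detected with unequal efficiency, so these shares describe detections and not relative abundance.

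Acute-phase and chemokine transcripts were found in the same segmented cells of the first island. Of its 112 members, 85 held Saa1/2 together with Cxcl9 or Cxcl10, and 12 held all 4 genes. By the larger sum, 48 members were led by Saa1/2 and Lcn2, 49 by Cxcl9 and Cxcl10, and 15 were tied. In the second island 15 of 23 members held Saa1/2 with a chemokine, none held all 4 genes, and 23 of 23 were led by Saa1/2 and Lcn2. Cells in a section can overlap and no doublet caller was applied, and transcripts assigned from a neighbouring cell were not tested for.

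Outside the islands the 4 genes were low in all areas. In non-member cells Saa1/2 ranged from 796 to 1068 over the 6 areas in CPM, counts scaled to a total of 1000000 gene counts. Cxcl9 ranged from 485 to 964 CPM, Cxcl10 from 843 to 1097 and Lcn2 from 679 to 917. Between 4.52 and 12.3% of non-member cells held at least 1 count of a given gene of the 4. A single negative control probe averaged between 303 and 689 CPM in the zones compared here, so low levels lie near the probe background. The 13 Control members outside any island held 44 counts of Saa1/2, 15 of Cxcl9, 32 of Cxcl10 and 3 of Lcn2, and the 21 HIRA KO members outside islands held 71, 42, 42 and 8. Of these, 6 Control and 7 HIRA KO members were led by Saa1/2 and Lcn2, and 6 and 14 were led by the chemokines.

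To describe the tissue around each island, cells were placed in 4 zones: island members, surroundings (other cells within 300 pixels of an island member), distant cells (the same field, over 1000 pixels from any member) and the rest of the area (other fields). HIRA KO area 1 gave 112, 479, 329 and 8632 cells, and HIRA KO area 3 gave 23, 83, 528 and 6609. For all genes other than the 4, the total behind CPM leaves out the 4 genes.

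The metallothioneins Mt1 and Mt2, small metal-binding proteins induced by zinc, glucocorticoids and interleukin 6, had the 2 largest folds of island members over the rest of the area in the first island (12.97 for Mt1), among genes with at least 20 counts in members. There, Mt1 was at 24466 CPM in island members, 12018 in the surroundings, 1393 in distant cells and 1886 in the rest of the area. Mt2 was at 12233, 7377, 782 and 1165 CPM in the same zones. Field 13 had the highest Mt1 level of the 50 fields, 6485 CPM over all its cells, and the next was 3144. In HIRA KO area 3 neither gene fell stepwise from members through surroundings to distant cells. Mt1 was at 2082, 2660, 1113 and 1417 CPM in the same zones and Mt2 at 1602, 614, 733 and 784. The values of island members there rested on 13 counts of Mt1 and 10 of Mt2, and their highest negative probe was at 1441 CPM.

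Across the genes, members were compared with all other cells of the same area by edgeR's quasi-likelihood test on counts summed per area, in the 2 areas with at least 20 members. Of 994 genes tested, 1 was higher (0.101%) and 1 was lower (0.101%) in members at an adjusted p of 0.05. Mt2 was the higher gene, with 11599 against 1443 CPM in HIRA KO area 1 and 2400 against 769 in HIRA KO area 3 (log2 difference 2.48, SE 0.59, adjusted p = 0.013). Members held 155 counts of Mt2 in the first of these areas and 17 in the second. Igkc, the immunoglobulin kappa constant chain of B and plasma cells, was the lower gene, with 599 against 7406 CPM and 847 against 4805 CPM (log2 difference -3.05, SE 0.70, adjusted p = 0.013). Mt1 differed in the same direction in both areas, 23573 against 2387 and 3670 against 1392 CPM, but did not pass (log2 difference 2.50, SE 0.74, adjusted p = 0.15). Both calls were lost with scaling by library size alone or with all 6 areas in the fit, with 0 genes called either way. With all 6 areas the log2 difference of Mt2 fell to 1.11 and that of Igkc was -3.18. The adjusted p over the 7 settings ranged from 5.26e-04 to 0.987 for Mt2 and from 6.79e-04 to 0.987 for Igkc. The fit had 1 residual degree of freedom, and levels below are descriptions where no call is named. Each SE here and below was worked back from the test's p on a normal scale and was not fitted.

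The acute-phase list, other than Saa1/2 and Lcn2, had a higher summed level in both islands than in the rest of their areas. Its 11 tested genes summed to 55945 CPM in members of HIRA KO area 1 against 17148 in the rest of the area, and to 26746 against 15272 CPM in HIRA KO area 3. Of the 11, 1 was called higher (Mt2) and 0 lower, and the median log2 difference of members to other cells was 0.51 against -0.02 over all genes. Fgg, the gamma chain of fibrinogen, was at 8155 CPM in members, 3957 in the surroundings and 3592 in the rest of HIRA KO area 1, and at 9609, 4229 and 3132 CPM in HIRA KO area 3; its difference did not pass (log2 1.41, SE 0.63, adjusted p = 0.87). Mt1, Mt2 and Fgg gave most of the list's counts in the first island. In the second, Fgg gave 60 of the list's 167 counts, Vtn 33 and Serpina1a 21. Vtn and Serpina1a are also among the hepatocyte markers, which were at 166400 CPM in members and 90132 in the rest of that area. The part of hepatocyte content in the list's level there was not tested. Crp, C-reactive protein, was at 1550 against 955 CPM and at 1281 against 1178 CPM in members and rest of the 2 areas.

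The interferon-response and MHC class I lists had higher summed levels than the rest of the area in the first island and lower ones in the second, without a call. The 24 tested interferon-response genes without Cxcl9 and Cxcl10 summed to 31398 CPM in members and 23056 in the rest of HIRA KO area 1, and to 19539 and 21377 CPM in HIRA KO area 3. None of the 24 was called, with 17 higher in HIRA KO area 1 and 11 in HIRA KO area 3, and a median log2 difference of 0.24. Tap1, which carries peptides to MHC class I, was at 2691 CPM in members and 1302 in the rest of the first area and at 480 and 1111 in the second, where it rested on 3 counts.

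MHC class I genes summed to 29440 CPM in members, 24535 in the surroundings and 17184 in the rest of HIRA KO area 1, against 19218, 25648 and 21317 CPM in HIRA KO area 3. H2-D1, a class I heavy chain, was at 4975 and 2192 CPM in members and rest of the first area and at 3203 and 3065 CPM in the second. MHC class II genes went the other way, at 17697 and 23304 CPM in the first area and 12172 and 25071 CPM in the second. H2-Ab1, a class II beta chain, was at 2528 and 4330 CPM, and at 2082 and 5936 CPM. None of the 6 class I and 8 class II genes tested was called.

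The summed level of chemokine and adhesion genes was higher in the first island than in the rest of its area, without a call. The NF-kB list summed to 23650 CPM in members and 16072 in the rest of HIRA KO area 1, and to 9930 and 13585 CPM in HIRA KO area 3, with 0 of 16 genes called. Against other cells, 9 of the 16 were higher in members of HIRA KO area 1 and 5 in HIRA KO area 3, and the median log2 difference was -0.05 against -0.02 over all genes. Ccl2, which attracts monocytes, was at 2202 and 691 CPM in the first area, and Icam1, an adhesion molecule for leukocytes, at 3017 and 896 CPM. In the second area members held 1 count of each. Cxcl3, a neutrophil chemokine, went the other way, at 489 and 931 CPM in the first area and 641 and 868 in the second, and rested on 6 and 4 counts. Ccl5, a T-cell chemokine, was at 5953 and 2685 CPM in the first area and at 2402 and 1924 CPM in the second. Slc2a1, the glucose transporter GLUT1, was at 3344 and 1050 CPM and Krt18, an epithelial keratin, at 2936 and 931 CPM in the first area. Slc2a1 and Krt18 are named for the size of their fold in that island, after the values were seen.

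Cell type markers set the 2 islands apart. Hepatocyte markers summed to 35312 CPM in members and 58716 in the rest of HIRA KO area 1, but to 166400 and 90132 CPM in HIRA KO area 3. In the second island, Apoa1, an apolipoprotein secreted by hepatocytes, was at 12972 CPM in members, 5525 in the surroundings and 2992 in the rest of the area, whereas in the first it was at 2447, 2182 and 4244 CPM. Ttr, transthyretin, was at 95932 and 50794 CPM in members and rest of HIRA KO area 3 and at 13864 and 26224 CPM in HIRA KO area 1. Gstp1/2, a glutathione transferase target, was at 10090 and 3206 CPM in members and rest of the second area. Apoa1 and Ttr were thus above the rest of the area in the second island and below it in the first. Not all hepatocyte genes followed them: Glul, glutamine synthetase of pericentral hepatocytes, was at 1602 and 4727 CPM in members and rest of the second area and at 1386 and 1538 CPM in the first, and Fgg was above the rest in both.

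Markers of immune cells differed as well. T and NK markers summed to 18186 CPM in members and 11271 in the rest of HIRA KO area 1, and to 7527 and 9153 CPM in HIRA KO area 3. Cxcr3, the receptor for Cxcl9 and Cxcl10, was at 1060 and 811 CPM in the first area and at 480 and 790 CPM in the second. Ifng, the gene of interferon gamma, held 5 counts in members of the first island and 6 in the second, below the highest negative probe in both. Kupffer cell markers were lower in members than in the rest of both areas, at 5056 and 8095 CPM and at 4805 and 13547 CPM, with all 7 genes lower in each area and 0 called. Marco, a scavenger receptor of Kupffer cells, had 0 counts in members of the first island, where the floor of 3 counts over the members corresponds to 245 CPM, against 574 CPM in the rest. B and plasma markers were at 8155 and 14502 CPM in the first area and 4164 and 15054 CPM in the second, with 1 of 9 genes, Igkc, called lower. Neutrophil markers were at 4649 and 3984 CPM and at 5766 and 3577 CPM, and the part of Lcn2 that neutrophils may carry was not tested.

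**Figure D3:**
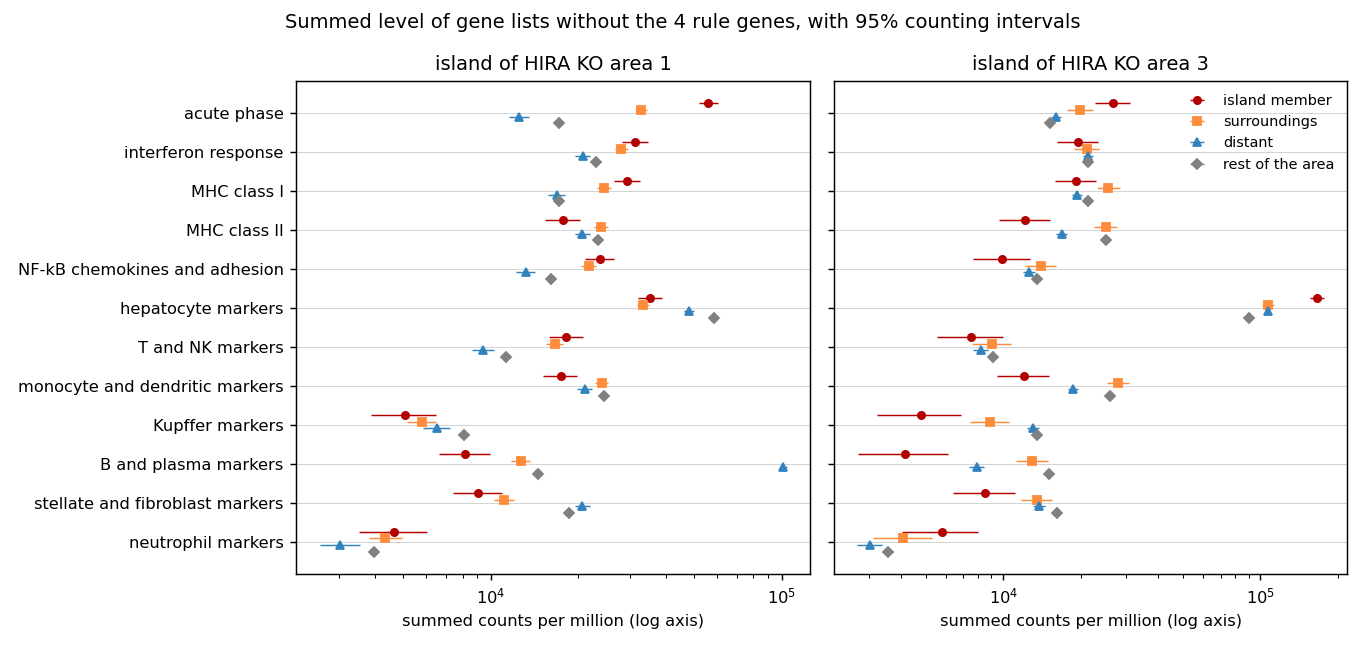
Summed CPM of 12 gene lists without the 4 rule genes (x axis, log scale) in the 4 zones of HIRA KO area 1 (left) and HIRA KO area 3 (right); bars are exact 95% Poisson intervals on the counts. Acute-phase levels of members lie above every other zone in both panels, while hepatocyte markers of members lie below the rest of the area on the left (35312 against 58716 CPM) and above it on the right (166400 against 90132 CPM).

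Stain and size measurements, taken from the same cells but not used by the rule, also separated the islands. The median CD45 stain, a marker of leukocytes, was 4033 in members, 5698 in the surroundings, 1408 in distant cells and 1006 in the rest of HIRA KO area 1, and 937, 1673, 992 and 1187 in HIRA KO area 3. Median cell area was 6910 square pixels in members and 9014 in the rest of HIRA KO area 1, against 24624 and 11255 in HIRA KO area 3. Members of the first island thus had a smaller median area and a brighter CD45 stain than cells of the other fields, and those of the second had a larger area and no brighter stain. Median gene counts per cell were 99.5 and 103 in the first area and 288 and 147 in the second. Unlike stain and size, gene counts entered the rule, as its floor and as the base of its percentage. Negative probe counts per 1000 gene counts were 3.42 in members and 4.26 in the rest of HIRA KO area 1, and 6.49 (exact 95% interval 4.69 to 8.74) and 4.05 in HIRA KO area 3.

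The differences between all members and other cells of an area had no common sign for CD45, DAPI or cell area. On the log2 scale, the CD45 median of members was 1.87 above other cells in HIRA KO area 1 and 0.232 below in HIRA KO area 3, and cell area was 0.426 below and 0.827 above. CD3, a T-cell stain, was higher in both, by 0.613 and 0.202. With 2 areas the exact sign-flip permutation test cannot go below p = 0.5. With all 6 areas, 2 of which held fewer than 5 members, no stain passed: the lowest adjusted p was 0.391, and CD45 and CD3 were higher in 4 of 6 areas each.

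**Figure D4:**
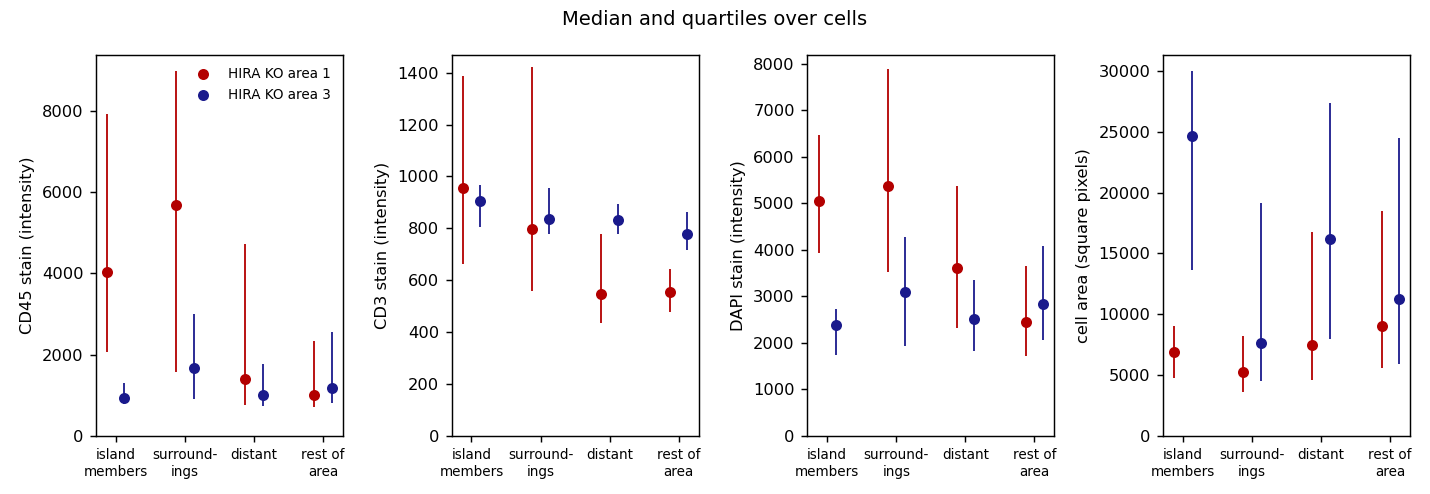
Median (points) and quartiles (bars) over cells of the CD45, CD3 and DAPI stain intensities and of cell area in square pixels, for the 4 zones of HIRA KO area 1 (red) and HIRA KO area 3 (blue). CD45 is highest in members (4033) and surroundings (5698) of the first area, and cell area is highest in members of the second (24624).

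The first island was then described by distance from its centre, without a test. Around the median position of its members, the share of members was 11.8% of 34 cells within 300 pixels (exact 95% interval 3.30 to 27.5%), 19.9% of 161 at 300 to 600 pixels (14.01 to 26.9%), 29.9% of 201 at 600 to 900 pixels (23.6 to 36.7%) and 8.28% of 169 at 900 to 1200 pixels (4.60 to 13.5%). Median CD45 over all cells was 5167, 7907, 6633 and 1426 in these 4 bands, and hepatocyte markers were at 21451, 16071, 32289 and 49031 CPM. Mt1 was at 11041, 14397, 20576 and 10296 CPM. Of these 4 bands, the share of members and Mt1 were highest at 600 to 900 pixels, and CD45 was highest at 300 to 600 pixels, where hepatocyte markers were lowest. The members led by Saa1/2 and Lcn2 numbered 30 at 600 to 900 pixels and 2 at 900 to 1200 pixels, against 22 and 11 led by the chemokines.

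Near the first island, cells that were not members showed the same genes at a lower level than its members. In HIRA KO area 3, Mt1 was instead at 2660 CPM in the surroundings and 2082 in island members. The rule limits how much of the 4 genes a non-member can hold, so their levels in non-members are capped. In field 13, Saa1/2 in non-members was at 6126 CPM within 100 pixels of an island member, 5316 at 100 to 200, 1533 at 200 to 300 and 706 beyond 1500 pixels. Cxcl9 was at 5832, 5140 and 4343 CPM over the first 3 distances, at 2962 from 300 to 500 pixels and at 706 beyond 1500. Mt1 was at 14805, 13038, 5246 and 4070 CPM over the first 4 distances and at 1319 beyond 1500 pixels. In field 47, Saa1/2 was at 11934 CPM at 100 to 200 pixels, 8734 at 200 to 300, 2575 at 300 to 500 and 606 at 500 to 700, while Cxcl10 stayed between 198 and 1030 CPM. Distances with fewer than 20 cells were left out.

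**Figure D5:**
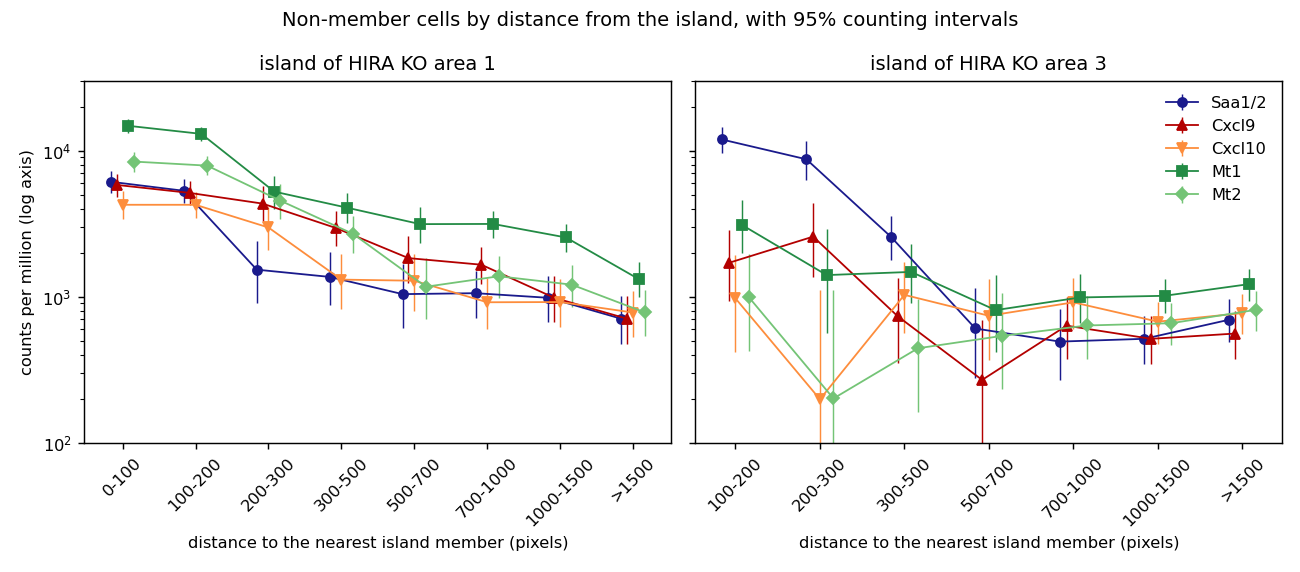
CPM (log axis) of Saa1/2, Cxcl9, Cxcl10, Mt1 and Mt2 in non-member cells by distance in pixels to the nearest island member, in field 13 (left) and field 47 (right); bars are exact 95% Poisson intervals, and those reaching below 100 CPM are cut there. In field 13 all 5 genes are lower at the farthest than at the nearest distance (Saa1/2 706 against 6126 CPM), and in field 47 Saa1/2 is at 11934 CPM at 100 to 200 pixels and at 606 CPM at 500 to 700.

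Surroundings were compared with distant cells of the same field over the same 2 areas. Of 992 genes tested with edgeR, 1 was higher (0.101%) and 3 were lower (0.302%) in the surroundings. Mt1 was the higher gene, with 12018 against 1393 CPM and 2660 against 1113 CPM (log2 difference 2.19, SE 0.55, adjusted p = 0.022). The lower genes were Ighm, the heavy chain of immunoglobulin M (2385 against 31571 and 341 against 1503 CPM; log2 -3.26, SE 0.74, adjusted p = 0.0054), Gpnmb, a glycoprotein of lipid-associated macrophages (370 against 1374 and 136 against 390 CPM; -1.96, SE 0.42, adjusted p = 0.0038), and Glul (1350 against 4464 and 1637 against 5742 CPM; -1.80, SE 0.48, adjusted p = 0.040). The distant cells of field 13 held B and plasma markers at 101162 CPM, against 14502 in the rest of the area, and the part of this in the lower immunoglobulin genes was not tested. In HIRA KO area 3, the mean negative probe was at 396 CPM in the surroundings and 424 in distant cells. Both Gpnmb levels of that area, and Ighm in its surroundings, lay under it. All 4 calls were lost without the largest segmented cells and with scaling by library size alone. The calls of Gpnmb and Glul were also lost by DESeq2.

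Several list genes were higher in the surroundings without passing. Ccl5 was at 4918 against 1469 CPM and 2115 against 1104 CPM (log2 1.33, SE 0.43, adjusted p = 0.15). Cd8a, of cytotoxic T cells, was at 777 against 286 CPM and 477 against 241 CPM, and Cd274, the interferon-induced checkpoint ligand PD-L1, at 814 against 324 CPM and 750 against 436 CPM. In distant cells the mean negative probe was at 366 CPM in HIRA KO area 1 and 424 in area 3. Both distant Cd8a levels, and that of Cd274 in area 1, lay under it. In the surroundings of area 3 both genes lay under the highest negative probe, at 819 CPM. Of the 24 interferon-response genes tested, 0 were called and the median log2 difference was 0.21 against -0.01 over all genes. Of the 11 acute-phase genes 1 was called higher and 0 lower, with a median of 0.27. In field 47 the haemoglobin targets were high in the surroundings, with Hbb at 4502 CPM against 1141 in distant cells.

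Island members and their surroundings did not separate by this test. Of 510 genes tested with edgeR, 0 were higher and 0 lower (0%), with 7 and 6 at an unadjusted p under 0.05; DESeq2 also called 0, with 1 and 2. Fgg, at 8155 against 3957 CPM and 9609 against 4229 CPM, was higher in members of both areas (log2 1.14, SE 0.45, adjusted p = 0.997). Igkc was at 571 against 4456 CPM and 801 against 3752 CPM (log2 -2.62, SE 0.86, adjusted p = 0.997). H2-Ab1 was at 2528 against 4844 CPM and 2082 against 5048 CPM (log2 -1.05, SE 0.46, adjusted p = 0.997).

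Within HIRA KO area 1, the 49 members led by Saa1/2 and Lcn2 were set against the 59 led by Cxcl9 and Cxcl10. The single genes named here were chosen for their difference after the values were seen. This comparison rests on 1 area, so it has no test, and intervals are exact 95% Poisson intervals on the counts. Cells led by Saa1/2 and Lcn2 held more Neat1, a nuclear noncoding RNA (12517 CPM, 9811 to 15738, against 4505, 2993 to 6510), and more Fgg (9774, 7402 to 12663, against 4183, 2732 to 6129). Chemokine-led cells held more B2m, the light chain of MHC class I (13996 CPM, 11210 to 17264, against 5830, 4037 to 8147), and more Srgn, a granule proteoglycan of blood cells (6435, 4597 to 8763, against 2058, 1063 to 3594). The interferon-response list without Cxcl9 and Cxcl10 did not differ in this way. It was at 29664 CPM (25408 to 34429) in cells led by Saa1/2 and Lcn2 and 29762 (25628 to 34373) in chemokine-led cells. Kupffer markers were at 1886 CPM in the first kind and 7561 in the second, and hepatocyte markers at 40638 and 28475 CPM. Lymphocyte markers were higher in the first kind: T and NK markers were at 20919 CPM (17372 to 24977) against 13192 (10492 to 16375), and B and plasma markers at 10288 (7851 to 13243) against 5309 (3654 to 7456). The nearest member of a cell was of its own kind for 55.1% of the 49 and 57.6% of the 59. The 2 kinds made up 49 and 59 of the area's 123 members, and sorting by kind was not tested.

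Transcript positions placed most Saa1/2 signal outside the nucleus. In island members of field 13, 25.4% of 386 Saa1/2 transcripts were nuclear (exact 95% interval 21.1 to 30.04%), against 42.4% of 269 for Cxcl9 (36.4 to 48.5%), 53.8% of 171 for Cxcl10 (46.03 to 61.4%) and 60.6% of 12262 for all other genes. In field 47, 13.1% of 329 Saa1/2 transcripts were nuclear (9.62 to 17.2%), against 35.1% of 6244 for all other genes. Mt1 was 31.7% nuclear in field 13, and Neat1 92.0%. Transcripts are not independent samples, so these shares describe the 2 islands. Near the first island, 4.09% of 685 Saa1/2 transcripts lay outside any cell, against 3.05% for all other genes, and near the second 8.71% of 551 against 6.04%.

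Values for members outside islands rest on few counts. The 21 HIRA KO members outside islands held Mt1 at 12622 CPM (31 counts, exact 95% Poisson interval 8576 to 17916) against 1977 in non-members of HIRA KO, and Apoa1 at 8143 CPM (20 counts, 4974 to 12577) against 3605. The 13 Control members held Mt1 at 1301 CPM (2 counts, 158 to 4701) against 2057 in non-members of Control, and Apoa1 at 2602 CPM (4 counts, 709 to 6663) against 3394. Of the 21, 6 lay in field 13. No Control area held 20 members, so no test of genotype within members was made.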

How the data were processed

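CosMx files of 50 fields of view of mouse liver were analysed: transcript counts per segmented cell, cell positions, sizes and stain intensities, and single transcript positions. The authors deposited raw counts per gene and cell, without normalization, and mean stain intensity per cell on a linear scale; the segmentation settings are not given in the sources used here. Positions, areas and compartments were deposited as plain coordinates or score values without rescaling. The deposited transcript list gave each target's position and cell compartment, and was used as counts.

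Cell outlines and field positions were not used. Cells with fewer than 20 gene counts (2215 cells) were left out. The members and gene lists were chosen with earlier results of these data known. Members were joined within 300 pixels, and islands held at least 10. Counts were summed per tissue area and tested with edgeR 4.0.16 (R 4.3.3; TMM, filterByExpr, quasi-likelihood test, area as a block, Benjamini-Hochberg adjustment, threshold 0.05); the 4 rule genes and 10 negative probes stayed out of library sizes and tests. With 2 areas such a fit has 1 residual degree of freedom. The SE of a log2 difference was worked back from its unadjusted p on a normal scale and was not fitted. The edgeR step was tested on simulated data. Areas with fewer than 20 members were left out of these fits. Shares and stains were tested by exact permutation in SciPy 1.17.1. The intervals are exact binomial or Poisson intervals at 95%. DESeq2 1.42.0, library-size scaling, no filter, other depth, distance and rule thresholds, cells without the largest, and leaving out areas were alternatives. Genes named were up to 8 called per direction and up to 4 of the lowest p per list; genes named outside that rule for their level in a zone were chosen after values were seen. Tests of genotype within members, of genotype by membership and between member kinds were not made, because too few areas held 20 such cells.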

Additional observations from a re-analysis of the deposited data

Results flagged for a closer look

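Within each tissue area, the field of view with the highest share of members was set against the other fields of that area, and 3 fields stood apart by Dixon's criterion at the 95% level. Chance meets it in about 1 in 20 groups of normally distributed values, a rate that does not hold for shares that are mostly 0. Field 13 of HIRA KO area 1 had 7.65% members, and the next of its 8 fields had 0.152%. Field 47 of HIRA KO area 3 had 2.54%, and the next of its 8 fields had 0.377%. Field 8 of Control area 1 had 0.116%, which is 1 cell, where the other fields of that area had 0, so a single member was enough to set this field apart.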

How the results depend on the processing

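Of 172 comparisons of a result with an alternative, 117 were counted as kept. In 18 the sign turned, in 15 a called gene kept its sign but lost its call, and in 22 a number moved. Kept meant the same direction and side of the threshold within the spread. For a number of islands or of genes called, it meant an unchanged or similar number, which includes 0 called in both. Some of the 117 could not cross the threshold, since 2 areas cannot give a sign-flip p under 0.5. For the HIRA KO minus Control share, the exact permutation p could not go under 0.1 with so few areas. It was at this limit, 0.1, without HIRA KO area 2. The difference in share stayed positive: from 0.151 to 0.735 percentage points when 1 area was left out, and 0.0733 at 8 counts and 8%. It was 0.0995 without field 13 and 0.00113 without the fields of both islands, settings chosen after seeing the data. The last of these is among the 117 although little of the difference remained. Linking at 200 pixels gave 4 islands with 64.5% of members, and at 8 counts and 8% there was 1 island with 35.7%.

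Gene counts moved as follows, higher then lower. Members against other cells gave 2 higher by DESeq2, 0 and 0 by library size, and 0 and 0 with all 6 areas (added later). Island members against surroundings gave 2 lower with at least 50 gene counts per cell and 2 lower without a filter. Surroundings against distant cells gave 6 and 5 with at least 50 counts, 0 and 0 without the largest cells, 4 and 8 at 200 pixels, 8 and 10 at 500 pixels, 1 lower by DESeq2, and 0 and 0 by library size. The causes were not tested.

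Stain, size and depth differences (log2, members minus others) turned with the choice of cells: against surroundings CD45 was -0.668 and DAPI -0.229. At 3 counts and 3% cell area was -0.252, nucleus area -0.0833 and gene counts per cell -0.169. At 8 counts and 8% cell area was -0.285 and gene counts -0.0251, and at 50 counts cell area was -0.0462. Leaving out 1 of the 2 areas gave PanCK -0.0100 to 0.248, B2M -0.0979 to 0.0749, CD45 -0.232 to 1.87, DAPI -0.192 to 0.935, cell area -0.426 to 0.827, nucleus area -0.0248 to 0.560 and gene counts -0.132 to 0.727. Negative probes, as a plain difference in counts per 1000 gene counts, were -0.223 at 3 counts and 3%, -0.693 with all areas and -0.680 to 2.29 when 1 of the 2 areas was left out.

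Gene tests could not leave out an area, since 1 would remain; at 8 counts and 8%, and for members against surroundings at 200 pixels, fewer than 2 areas remained. Between Control and HIRA KO, no paired analysis was possible because replicate numbers are field numbers that the genotypes do not share. Slide row as a block, planned for genotype within members, could not be fitted since no Control area held 20 members, and it was not run for the share. Within areas, the gene tests had area as a block. Sparse counts near the probe background limit all low genes.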
